A study of Rattus norvegicus with 10 samples.

Results

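Gene expression in the left ventricle of rats kept for 30 days at 34 °C was compared with that of untreated rats, gene by gene, over 14324 genes. The comparison took 4 of the 10 arrays of the series, 2 from the heated group (AC30) and 2 from the untreated group (control), chosen by their sample labels. Every array was hybridised with biotin-labelled material made from total RNA of 1 separate biological pool of 5 animals. The animals were albino rats of the Sabra strain, with no genetic change and no drug treatment named for any group. Control rats were untreated and 1 month old. AC30 rats entered the heat at 3 weeks of age, stayed at 34 °C for 30 days and were 2 months old. The other 6 arrays added to the estimate of the spread between pools. They came from rats after 2 days at 34 °C (AC2d, 1 month old), after 30 days at 34 °C and then 30 days at 24 °C (DeAC, 3 months old), and after that course plus 2 more days at 34 °C (ReAC, 3 months old). AC30 rats therefore differed from control rats by 1 month of age as well as by heat, and the effects of heat and age cannot be told apart in this comparison. A pool of animals gives 1 value, so the spread between single animals was not measured. The sources used here give neither the animals' sex nor the temperature at which control rats lived.

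Heat acclimation is the slow adjustment of the body to lasting warmth, and in rats it is known for a lower metabolic rate, less circulating thyroid hormone and a heart that contracts more slowly and economically. The rat heart is at the same time still growing in these weeks: myocytes leave the cell cycle after birth, non-myocyte cells go on dividing, and the muscle comes to rely on fatty acids as its main fuel. The slow myosin heavy chain Myh7 and the fast chain Myh6 are the motor proteins of the ventricle, and thyroid hormone is known to raise Myh6 and to lower Myh7.

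Values are log2 signals, on which a difference of 1 is a 2-fold difference, and each difference is an AC30 mean minus a control mean (n = 2 pools per group) with its standard error. A gene was called higher or lower when limma's Benjamini-Hochberg adjusted p, taken over all genes, was under 0.05. Errors and p-values rest on a spread that all 10 arrays share, so they do not measure the spread of these 4 pools alone. The medians of the deposited values lay between 5.95 and 6.10 before the arrays were quantile normalized.

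The control pools were less alike than those of the other groups. For 57 genes their values were over 1 log2 unit apart, which held for 1 gene in AC30. Markers of ventricular myocytes were bright throughout, with list means of 11.18 and 11.24 in control against 11.12 and 11.12 in AC30. Genes that mark atrial myocytes were bright as well, although the samples are labelled left ventricle. Their mean was 10.93 in control replicate 1, 9.13 in control replicate 2, 11.77 and 11.62 in AC30, but 7.34 and 7.36 in DeAC. Control replicate 2 was thus the lowest of the 4 pools compared, and the atrial level moved with the contrast of AC30 and control in all results below. Its part in them was not tested. An alternative fit with the atrial level of each array, the mean of these same markers, as a covariate left 222 calls.

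In AC30, 512 genes (3.57% of those tested) were higher and 710 (4.96%) were lower than in control, together 1222 genes (8.53%). Both AC30 pools lay on the same side of both control pools for each of these, as they did for 20.7% of all genes above and 24.3% below. Where such a separation is given below for a called gene, it is a description and no further support. The changes were small for most genes: the median was 0.39 among the genes called higher and -0.35 among those called lower, and 907 calls (74.2%) were of less than 0.5 log2 units. A change of at least 1 log2 unit was seen in 29 genes that were higher and 14 that were lower. The total fell to 484 without AC30 replicate 1 and to 693 without control replicate 2. Of the 1222 genes, 369 (140 higher and 229 lower) stayed called in all 10 leave-one-out fits, each without 1 of the 10 arrays, and all 1222 kept their sign in each.

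Among the 15 largest rises, the pools of each group lay close together for Cxcl13, Epyc and H19. The chemokine gene Cxcl13, whose product attracts B cells, gave log2 signals of 6.0 and 5.91 in control against 7.94 and 8.07 in AC30. Epyc, a small proteoglycan best known from cartilage, had 4.82 and 4.70 in control against 6.49 and 6.37 in AC30. The imprinted noncoding RNA H19 had 7.59 and 7.66 in control against 9.07 and 8.98 in AC30, and the groups of these 3 genes stood well apart. Cxcl13 rose 4.15-fold, by 2.05 ± 0.14 (adjusted p = 4.85e-06), Epyc rose by 1.67 ± 0.13 (adjusted p = 1.27e-05) and H19 by 1.39 ± 0.09 (adjusted p = 1.81e-06). Myh7, described below, had its lowest value in control replicate 1, and the other 11 of the 15 genes had theirs in control replicate 2. The hormone gene Hamp, which encodes hepcidin and is among the atrial markers used here, had 9.56 and 7.09 in control against 10.82 and 10.57 in AC30. Rxfp1, the relaxin receptor, had 8.55 and 6.92 in control against 9.82 and 9.65 in AC30, and the lipid transfer gene Stard10 had 9.42 and 7.78 in control against 10.49 and 10.28 in AC30. AC30 pools were the highest for these 3 genes, with control replicate 1 much nearer to them than control replicate 2. Their changes were 2.37 ± 0.48 (adjusted p = 0.00846), 1.99 ± 0.33 (adjusted p = 0.00223) and 1.78 ± 0.33 (adjusted p = 0.00428), and they became 1.14, 1.18 and 0.96 without control replicate 2. The folate hydrolase gene Ggh rose by 1.50 ± 0.25 (adjusted p = 0.00252), the kinase gene Camk1d by 1.41 ± 0.24 (adjusted p = 0.00249) and the vesicle trafficking gene Sytl2 by 1.36 ± 0.21 (adjusted p = 0.00143). Without control replicate 2 these 3 changes were 0.90, 0.88 and 0.85. The neuronal calcium sensor gene Vsnl1 rose by 1.34 ± 0.38 (adjusted p = 0.0452), with an adjusted p of up to 0.177 in 9 of 10 leave-one-out fits. Without control replicate 2 the Vsnl1 change was 0.42, and with only that control pool it was 2.26. For Hamp the change without control replicate 1 was 3.61, and the adjusted p was 0.0803 without AC30 replicate 1, and for Stard10 it was 0.0528 without AC30 replicate 1.

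For each of the 15 largest falls the control pools lay less than 1 log2 unit apart. Inha, the alpha subunit of inhibin, had 8.35 and 8.16 in control against 6.44 and 6.37 in AC30, and it fell 3.60-fold, by 1.85 ± 0.09 (adjusted p = 1.81e-07). Alox15, a lipoxygenase that oxidises arachidonic acid, had 8.68 and 8.57 in control against 7.18 and 7.42 in AC30. Car4, a carbonic anhydrase held on the outer cell membrane, had 8.87 and 9.23 in control against 7.98 and 7.98 in AC30. For these 3 genes every AC30 pool lay below every control pool, as for all genes called lower. Alox15 fell by 1.33 ± 0.11 (adjusted p = 2.01e-05) and Car4 by 1.07 ± 0.09 (adjusted p = 2.22e-05). Apold1, an early-response gene of endothelium, fell by 1.05 ± 0.12 (adjusted p = 0.000268), the glycoprotein hormone gene Stc1 by 1.05 ± 0.16 (adjusted p = 0.00139), and Reg3g, a secreted lectin known from epithelial defence, by 1.00 ± 0.12 (adjusted p = 0.000288). The dipeptidase gene Dpep2 fell by 1.07 ± 0.20 (adjusted p = 0.00478), with an adjusted p of 0.0689 without AC30 replicate 1. The remaining 8 of the 15 genes were the metabolic genes Pdk4 and Bdh1, the linker histone genes H1f1 and H1f5, and the cell division genes Top2a, Prc1, Kif4a and Ndc80.

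**Figure D1:**
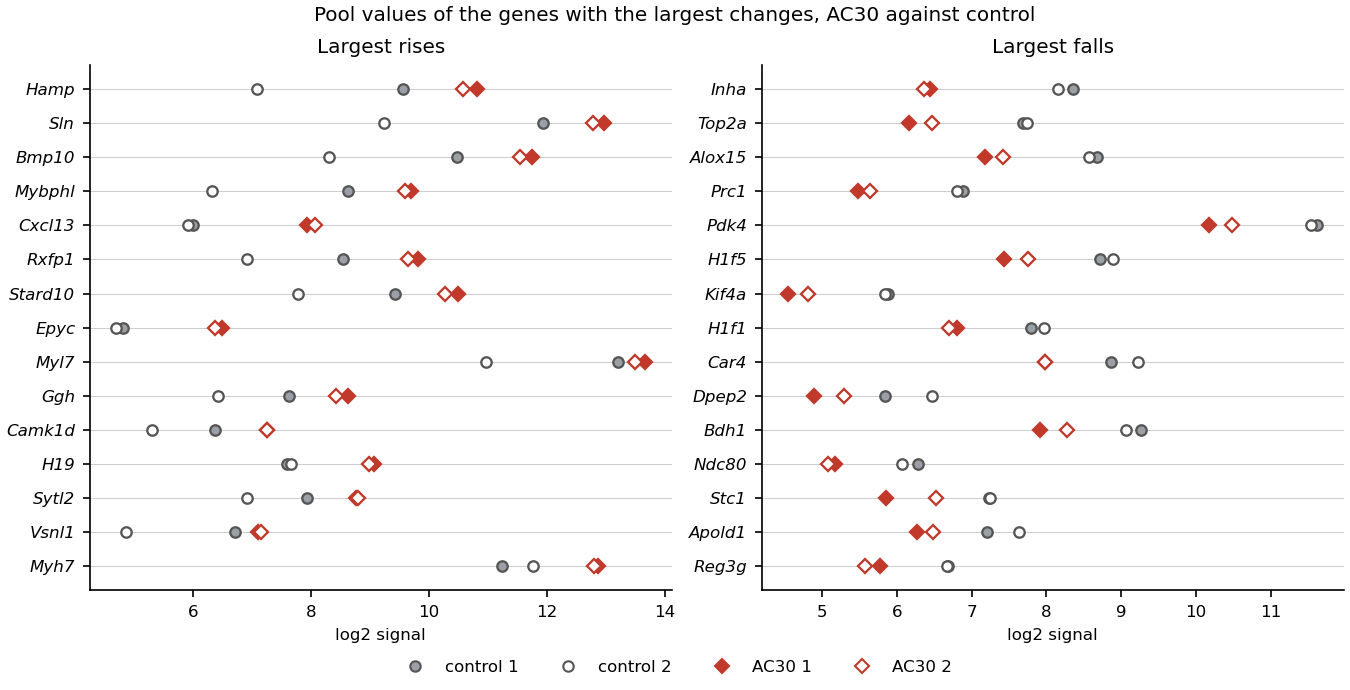
Log2 signal (x axis) in each of the 2 control pools (circles) and 2 AC30 pools (diamonds) for the 15 largest rises (left) and the 15 largest falls (right), ordered by size. For Hamp, Sln, Bmp10 and Mybphl control replicate 2 lies more than 2 log2 units below control replicate 1, while for Cxcl13, H19 and Inha the pools of a group lie close together.

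Genes of mitosis and cytokinesis fell together. Of 47 measured members, 31 were lower and 0 higher, against 4.96% lower among all genes, and the median change was -0.53 against -0.008 over all genes. Top2a, the topoisomerase that untangles replicated chromosomes, had 7.69 and 7.74 in control against 6.16 and 6.47 in AC30. Prc1, which bundles microtubules between separating chromosomes, had 6.89 and 6.81 in control against 5.48 and 5.65 in AC30, and the chromosome motor gene Kif4a had 5.88 and 5.85 in control against 4.55 and 4.81 in AC30. The control pools of these 3 genes agreed closely and lay above both AC30 pools. Top2a fell 2.63-fold, by 1.40 ± 0.11 (adjusted p = 1.27e-05), Prc1 by 1.28 ± 0.13 (adjusted p = 6.28e-05) and Kif4a by 1.19 ± 0.12 (adjusted p = 5.76e-05). The kinetochore gene Ndc80 fell by 1.05 ± 0.13 (adjusted p = 0.000318) and the cytokinesis motor gene Kif23 by 0.99 ± 0.13 (adjusted p = 0.00044). Other members that fell were the mitotic kinase genes Cdk1, Aurkb, Plk1, Bub1 and Ttk and the cyclin genes Ccna2 and Ccnb2. Of these, Plk1 and Ccna2 stayed called in all 10 leave-one-out fits. Fewer such cells and less of these transcripts per cell cannot be told apart in bulk tissue, here and for each cell type below. In the fit without the dimmest 40% of genes, members among those genes were taken out beforehand and could not be called. The mean signal of the list was low, at 5.81 and 5.82 in control against 5.18 and 5.31 in AC30, and the count was 13 without AC30 replicate 1 and 4 when the dimmest 40% of genes were left out.

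Mitotic genes are known to share a pair of promoter elements, the CCAAT box, bound by the factor NF-Y, and the cell cycle homology region (CHR), bound by the DREAM and MuvB complexes. The promoters of the 3 mitosis genes with the smallest p are shown, and each of them carries both. They are RefSeq sequences of the rat assembly GRCr8, 250 bases before and 50 after the annotated start, and not of the Sabra strain. Capitals mark CCAAT or its reverse complement ATTGG, and TTTGAA or TTCGAA or the reverse complement TTCAAA. No match overlaps another.
Top2a, chr10:84473044-84473343, minus strand: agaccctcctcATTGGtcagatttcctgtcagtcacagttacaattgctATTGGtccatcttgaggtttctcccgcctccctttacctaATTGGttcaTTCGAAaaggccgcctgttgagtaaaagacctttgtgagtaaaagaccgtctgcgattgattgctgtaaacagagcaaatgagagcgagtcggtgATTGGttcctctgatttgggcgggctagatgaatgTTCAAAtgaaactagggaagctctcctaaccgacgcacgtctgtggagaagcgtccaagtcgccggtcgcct
Kif4a, chrX:69761633-69761932, plus strand: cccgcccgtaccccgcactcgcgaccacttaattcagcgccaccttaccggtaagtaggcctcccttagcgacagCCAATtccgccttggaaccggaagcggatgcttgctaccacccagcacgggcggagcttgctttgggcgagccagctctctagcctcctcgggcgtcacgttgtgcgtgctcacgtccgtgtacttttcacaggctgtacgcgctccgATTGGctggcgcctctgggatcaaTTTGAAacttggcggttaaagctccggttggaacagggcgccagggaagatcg
Prc1, chr1:143659231-143659530, plus strand: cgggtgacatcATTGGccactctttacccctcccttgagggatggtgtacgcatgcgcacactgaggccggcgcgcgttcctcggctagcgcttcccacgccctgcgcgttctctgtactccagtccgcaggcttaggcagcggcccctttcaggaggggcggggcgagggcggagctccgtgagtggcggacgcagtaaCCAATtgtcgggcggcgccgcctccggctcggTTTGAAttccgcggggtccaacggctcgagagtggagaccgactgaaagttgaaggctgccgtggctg
Top2a held 4 CCAAT boxes and 2 CHR matches, the nearest beginning 57 and 22 bases before the start. In Prc1 the nearest began 50 and 18 bases before it, and in Kif4a 27 and 3 bases before it. Promoters were found for 40 of the 47 members. Of these, 31 (77.5%) held CCAAT on either strand, against 37.7% of all 27457 rat promoters of the same length. CHR was held by 30 (75%) against 19.5%, and both by 25 (62.5%) against 7.83%. Of the 25 members with a promoter that were called lower, 19 (76%) held CCAAT and 18 (72%) CHR, no more often than the whole list. A match of letters is a description and not a binding site.

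DNA replication genes moved less than mitosis genes. Of 43 measured members, 7 were lower and 0 higher, with a median of -0.17. Rrm2, the ribonucleotide reductase subunit that makes deoxynucleotides, had 6.79 and 6.65 in control against 5.70 and 5.75 in AC30, and it fell by 1.00 ± 0.12 (adjusted p = 0.000274). The DNA methylation partner gene Uhrf1 fell by 0.65 ± 0.10 (adjusted p = 0.00113), and Pcna and Prim1 were among the other members that fell, though their calls did not hold in all 10 leave-one-out fits. Cdkn1a, which encodes the p21 inhibitor of cyclin-dependent kinases, had 8.83 and 9.14 in control against 8.12 and 8.28 in AC30, and it fell by 0.79 ± 0.09 (adjusted p = 0.000244). An inhibitor of the cell cycle thus fell in the same samples as the genes of division. Of 21 core histone genes 7 were lower and 1 higher (3 without control replicate 1, and 0 without any other array), among the lower ones H2ac4 with a fall of 0.72 ± 0.11 (adjusted p = 0.00128). The linker histone genes H1f5 and H1f1, which compact nucleosome arrays, fell by 1.20 ± 0.12 (adjusted p = 5.62e-05) and 1.12 ± 0.10 (adjusted p = 2.57e-05), as 2 of 3 measured linker histones. Histone genes resemble each other closely, so signals of single members may be shared.

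The genes that take up and burn fatty acids fell as a group. Of 41 measured members, 26 were lower and 0 higher, with a median change of -0.26. Pdk4, the kinase that shuts pyruvate dehydrogenase and so restrains glucose oxidation, had 11.62 and 11.54 in control against 10.17 and 10.48 in AC30. It fell 2.39-fold, by 1.25 ± 0.08 (adjusted p = 1.81e-06), and its AC30 pools were the lowest of all 10 arrays. Pdk4 stands on the list as a gene that rises with fatty acid use, and its product acts on glucose rather than on fat. Acsl6, which activates long-chain fatty acids, had 7.43 and 7.69 in control against 6.56 and 6.77 in AC30, and it fell by 0.89 ± 0.11 (adjusted p = 0.000267). Cpt2, the inner-membrane carnitine palmitoyltransferase, had 10.26 and 10.44 in control against 9.92 and 9.87 in AC30. The groups of both genes were clearly apart, and Cpt2 fell by 0.45 ± 0.06 (adjusted p = 0.000383). The thiolase gene Acaa2 fell by 0.34 ± 0.04 (adjusted p = 0.000271) and the carnitine acetyltransferase gene Crat by 0.48 ± 0.06 (adjusted p = 0.000574). Members that fell came from several steps of the pathway: uptake (Lpl, Fabp3), activation (Acsl1), the carnitine shuttle (Cpt1a, Cpt1b, Slc25a20), beta-oxidation (Acadl, Acadm, Acadvl, Hadha) and release from stored fat (Pnpla2, Lipe). Of these 12 genes Lpl, Slc25a20, Acadm and Lipe stayed called in all 10 leave-one-out fits, and the call of Fabp3 was lost in 4 of them, with an adjusted p of 0.179 without control replicate 2. The transcriptional regulators of this pathway did not pass: Ppara was at 0.11 (adjusted p = 0.446) and the coactivator gene Ppargc1a at -0.17 (adjusted p = 0.0767). The count of 26 was 11 without AC30 replicate 1, and 3 with the atrial level as a covariate. AGGTCA, the core of nuclear receptor sites, stood on either strand in 9 of 35 promoters of the list found (25.7%), against 15.7% of all. Of the members that fell, 4 of 21 (19%) held it. The promoters of Pdk4, Acsl6 and Cpt2, picked for their small p, held 0 matches and are not printed.

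Genes of ketone and branched-chain amino acid breakdown, of the tricarboxylic acid cycle and of glycolysis were also lower more often than higher. Bdh1, the mitochondrial enzyme that interconverts the ketone bodies, had 9.26 and 9.06 in control against 7.92 and 8.27 in AC30, and it fell by 1.07 ± 0.11 (adjusted p = 0.000105). Of 20 genes of the ketone and branched-chain list 7 were lower and 0 higher, a count that was 4 without control replicate 2, where 1 member was higher, and 2 without AC30 replicate 1. Of 29 genes of the tricarboxylic acid cycle and pyruvate entry, 18 were lower and 0 higher (11 without AC30 replicate 1), with a median of -0.21. Pdk4 is a member of this list too. The isocitrate dehydrogenase subunit gene Idh3a had 11.67 and 11.68 in control against 11.30 and 11.28 in AC30, and it fell by 0.38 ± 0.04 (adjusted p = 0.000143). Ogdh, the oxoglutarate dehydrogenase gene, fell by 0.34 ± 0.04 (adjusted p = 0.000153), and Dlat and Pdhx of the pyruvate dehydrogenase complex by 0.42 ± 0.05 and 0.47 ± 0.06. Each of these 4 genes had both AC30 pools below both control pools. Of 34 genes of glycolysis, glucose transport and glycogen, 9 were lower and 2 higher (1 without either AC2d pool or either AC30 pool). Eno3, the enolase of striated muscle, had 10.67 and 10.57 in control against 11.28 and 11.30 in AC30, while Eno1, the widely expressed enolase, had 11.96 and 11.97 in control against 11.72 and 11.69 in AC30. The AC30 pools were thus higher for Eno3, which rose by 0.67 ± 0.05 (adjusted p = 4.85e-06), and lower for Eno1, which fell by 0.26 ± 0.04 (adjusted p = 0.00171). Pfkfb2, which sets the level of an activator of phosphofructokinase, fell by 0.67 ± 0.07 (adjusted p = 0.000167). The lactate transporter gene Slc16a1 fell by 0.51 ± 0.06 (adjusted p = 0.00029) and the glycogen synthase gene Gys1 by 0.37 ± 0.05 (adjusted p = 0.000684). Of 23 fatty acid and sterol synthesis genes, 4 were lower and 1 higher, the desaturase gene Scd2 rising by 0.71 ± 0.11 (adjusted p = 0.00183). The 4 became 2 without either AC2d pool and 1 without AC30 replicate 1, and 3 were higher without control replicate 1.

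The respiratory chain moved the same way by smaller amounts. Of 32 measured complex I subunits 13 were lower and 0 higher, with a median of -0.14. Ndufv1, the subunit that takes electrons from NADH, had 12.04 and 12.11 in control against 11.87 and 11.83 in AC30, and it fell by 0.23 ± 0.04 (adjusted p = 0.00519). Ndufs1 had 12.35 and 12.36 in control against 12.19 and 12.17 in AC30, and it fell by 0.18 ± 0.04 (adjusted p = 0.0107). In both genes the AC30 pools lay below the control pools by about the same step. The complex I count was 4 without control replicate 2, 3 without AC30 replicate 1 and 2 under median scaling. Of 39 subunits of the later complexes 9 were lower and 0 higher (1 without AC30 replicate 1), among them the ATP synthase gene Atp5mc3 with a fall of 0.18 ± 0.04 (adjusted p = 0.00905). Of 67 mitochondrial ribosomal proteins 12 were lower and 0 higher, which became 5 without control replicate 2 and 0 without AC30 replicate 1. The inner membrane carrier genes Ucp2 and Ucp3 fell by 0.37 ± 0.05 (adjusted p = 0.000315) and 0.65 ± 0.12 (adjusted p = 0.00384).

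Ribosomal proteins of the cytosol moved the opposite way. Of 73 measured members, 20 were higher and 0 lower, against 3.57% higher among all genes, and 3 of the 73 had a change below 0, not called. Rps20, of the small subunit, had 11.38 and 11.39 in control against 11.72 and 11.72 in AC30. Rpl31, of the large subunit, had 11.02 and 11.01 in control against 11.28 and 11.36 in AC30. The control pools of each gene lay within 0.01 of each other on the printed values, below both AC30 pools. Rps20 rose by 0.34 ± 0.05 (adjusted p = 0.00101), Rpl31 by 0.30 ± 0.05 (adjusted p = 0.00178) and Rpl7 by 0.26 ± 0.05 (adjusted p = 0.00315). The steps were small, with a list median of 0.13, and 7 members were called without AC30 replicate 1 and 7 under median scaling. Of 32 translation factors 3 were higher and 0 lower (5 higher without control replicate 1, against 1 without control replicate 2), among them Tpt1, a growth-linked gene, at 0.24 ± 0.05 (adjusted p = 0.00463).

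Vertebrate ribosomal protein transcripts are known to begin with a run of pyrimidines, the 5′ terminal oligopyrimidine tract, through which their translation follows nutrient signals. The start regions of the 3 called members with the smallest p among those matched to the RefSeq promoter table are shown. Each region is 40 bases before and 40 after the RefSeq start of GRCr8. Capitals mark the longest run of pyrimidines touching the 10 bases on either side of that start. The run begins at base 1 after the start in Rpl31, at base 5 in Rps28 and 2 bases before the start in Rps23. On this annotation the Rps28 transcript therefore does not begin with the marked run.
Rpl31, chr9:49143071-49143150, plus strand: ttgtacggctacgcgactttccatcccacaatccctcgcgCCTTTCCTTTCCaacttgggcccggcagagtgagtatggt
Rps28, chr7:15311294-15311373, minus strand: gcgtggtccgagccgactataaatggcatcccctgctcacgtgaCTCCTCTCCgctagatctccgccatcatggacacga
Rps23, chr2:23814477-23814556, plus strand: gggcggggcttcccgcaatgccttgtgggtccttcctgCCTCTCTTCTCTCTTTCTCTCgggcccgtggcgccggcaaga
Rps28 had 11.49 and 11.48 in control against 11.84 and 11.72 in AC30, and it rose by 0.30 ± 0.05 (adjusted p = 0.00384). Rps23 had 10.48 and 10.51 in control against 10.89 and 10.71 in AC30, and it rose by 0.30 ± 0.06 (adjusted p = 0.00745). In both genes the step was larger in AC30 replicate 1, and the adjusted p was 0.0529 without AC30 replicate 1 for Rps28 and 0.0832 without AC30 replicate 1 for Rps23. A run of at least 8 pyrimidines touching the 10 bases on either side of the start was found in 45 of 62 ribosomal promoters (72.6%, median run 10 bases), against 13.2% of all promoters (median 4). Among the members called higher it was found in 11 of 16 (68.8%), no more often than in the whole list.

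**Figure D2:**
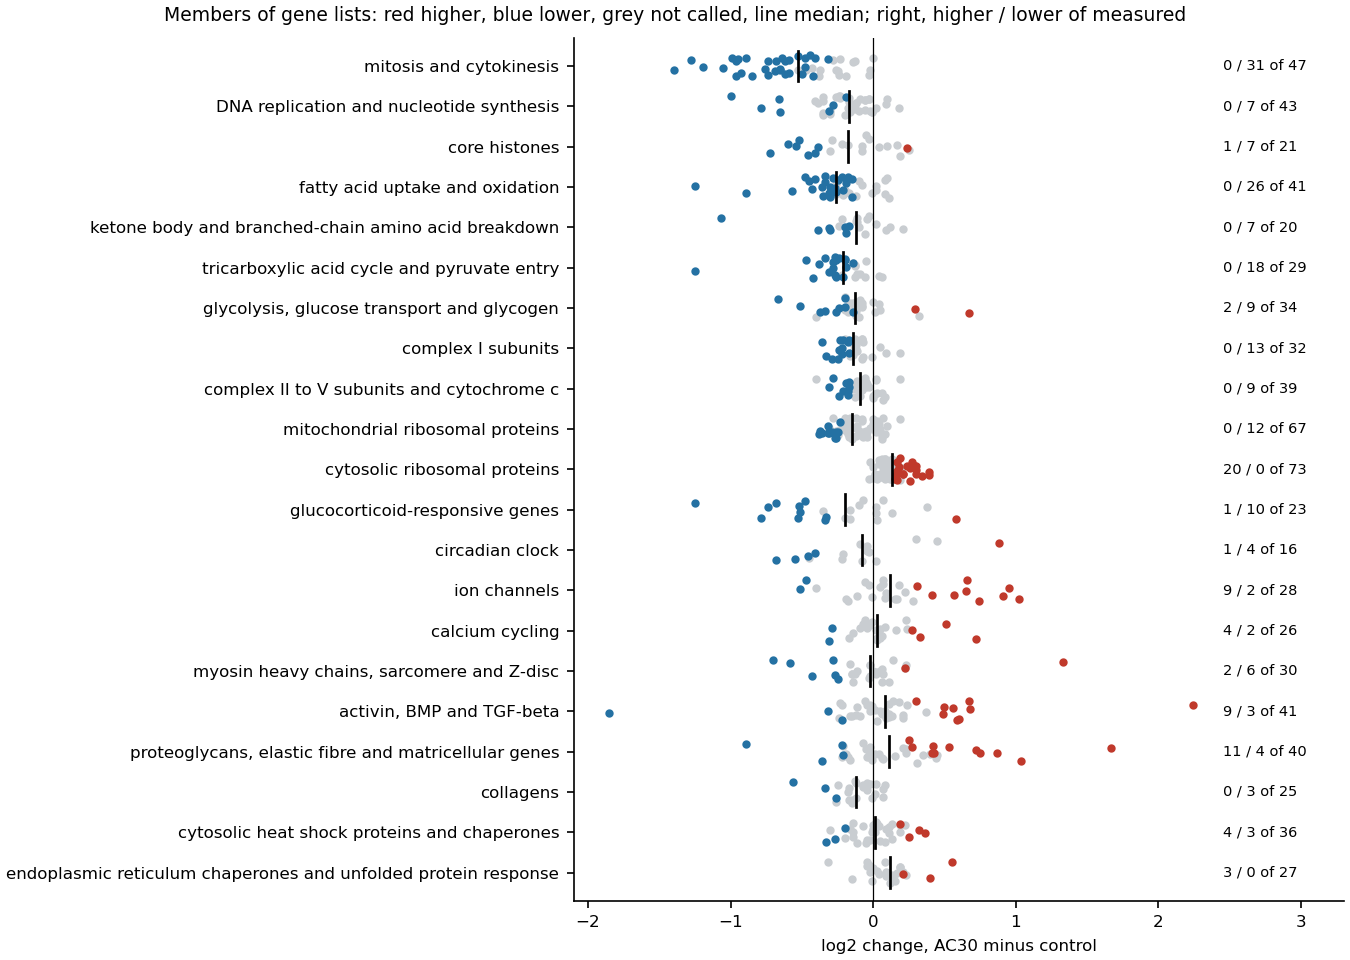
Log2 change in AC30 against control (x axis) of every measured member of 21 gene lists (points, spread vertically for sight), coloured by call, with the list median as a black line and the number called higher and lower at the right. Mitosis, fatty acid oxidation and tricarboxylic acid cycle genes lie left of 0 and cytosolic ribosomal proteins right of it, while heat shock proteins centre near 0.

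Myosin changed in the slow chain. Myh7 had 11.24 and 11.77 in control against 12.86 and 12.80 in AC30, with control replicate 1 the lowest, and it rose 2.51-fold, by 1.33 ± 0.11 (adjusted p = 1.74e-05). The fast chain Myh6 had 13.31 and 13.29 in control against 13.27 and 13.25 in AC30, at a difference of -0.03 (adjusted p = 0.658), so that Myh6 was not called while Myh7 was. Both chains are near the top of the signal range, where an array can compress differences. Of 30 genes of the sarcomere and Z-disc 6 were lower and 2 higher (1 without AC30 replicate 1). Acta1, the skeletal actin that the young heart also makes, had 12.45 and 12.65 in control against 11.83 and 11.87 in AC30, and it fell by 0.70 ± 0.06 (adjusted p = 1.27e-05). The ventricular light chain gene Myl3 fell by 0.27 ± 0.05 (adjusted p = 0.00315) and Fhl2, a LIM protein of the sarcomere, by 0.43 ± 0.08 (adjusted p = 0.00345). Ankrd1, a stretch-responsive partner of titin, rose by 0.22 ± 0.04 (adjusted p = 0.00615), with an adjusted p of 0.0505 without AC30 replicate 1. Of 26 calcium cycling genes 4 were higher (2 without AC30 replicate 1) and 2 lower. The calcium pump of the sarcoplasmic reticulum, Atp2a2, was at 0.05 (adjusted p = 0.5) and its inhibitor phospholamban, Pln, at 0.08 (adjusted p = 0.219). Neither of these passed, whereas Itpr1, the inositol trisphosphate receptor, rose by 0.51 ± 0.07 (adjusted p = 0.000639) and Jph2, which holds the tubule and reticulum membranes together, fell by 0.31 ± 0.05 (adjusted p = 0.00204).

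Ion channels were called higher more often than lower, 9 against 2 of 28 measured, or 5 against 1 without AC30 replicate 1 and 6 against 1 without control replicate 2. The T-type calcium channel gene Cacna1h had 7.49 and 7.35 in control against 8.23 and 8.08 in AC30. The pacemaker channel gene Hcn4 had 7.32 and 7.11 in control against 7.82 and 7.91 in AC30, and its relative Hcn2 had 9.12 and 9.35 in control against 8.63 and 8.81 in AC30. The AC30 pools were above control for Cacna1h and Hcn4 and below it for Hcn2. Cacna1h rose by 0.74 ± 0.08 (adjusted p = 0.000201) and Hcn4 by 0.65 ± 0.08 (adjusted p = 0.000352), and Hcn2 fell by 0.51 ± 0.08 (adjusted p = 0.00153). The potassium channel gene Kcna4 rose by 0.66 ± 0.10 (adjusted p = 0.00153). Kcnj3, the channel that acetylcholine opens in the atrium, rose by 0.95 ± 0.14 (adjusted p = 0.00144), or by 0.61 without control replicate 2. Of 13 conduction system markers 4 were higher (2 without AC30 replicate 1) and 1 lower, and the transcription factor gene Etv1 rose by 0.67 ± 0.12 (adjusted p = 0.00309). The 1 lower marker, Irx3, was called in only 3 of 10 leave-one-out fits.

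Among peptide hormones of the heart and their receptors 6 of 23 were higher (3 without AC30 replicate 1) and 5 lower. The natriuretic peptide gene Nppa had 12.94 and 11.52 in control against 13.32 and 13.25 in AC30, and it rose by 1.05 ± 0.28 (adjusted p = 0.0338), with an adjusted p of up to 0.166 in 8 of 10 leave-one-out fits. The Nppa change was 0.33 without control replicate 2, but 1.76 without control replicate 1. Nppb had 11.10 and 10.68 in control against 11.34 and 11.37 in AC30, and it rose by 0.46 ± 0.09 (adjusted p = 0.00657), or by 0.26 without control replicate 2. For both genes control replicate 2 was the lowest pool. Corin, the protease that activates these peptides, rose by 0.77 ± 0.09 (adjusted p = 0.000267). The vascular peptide gene Apln and its receptor gene Aplnr fell by 0.54 ± 0.09 (adjusted p = 0.00237) and 0.38 ± 0.06 (adjusted p = 0.00178), and Calcrl, the receptor of adrenomedullin, fell by 0.46 ± 0.09 (adjusted p = 0.00484). Without control replicate 2 the fall of Calcrl was -0.29. Nppa and Bmp10, both on the peptide hormone list and called higher, are also atrial markers. Of 26 genes of adrenergic, muscarinic and thyroid hormone signalling 4 were higher and 0 lower. The 4 became 1 without control replicate 2 and 0 without AC30 replicate 1, and 1 member was lower without either control pool or AC30 replicate 2. The muscarinic receptor gene Chrm2 rose by 0.25 ± 0.05 (adjusted p = 0.0121), with an adjusted p of 0.0989 without control replicate 2 and 0.0917 without AC30 replicate 1, or by 0.16 without control replicate 2, while Adrb1 (0.12, adjusted p = 0.603), Thra (0.19, adjusted p = 0.0762) and Thrb (-0.20, adjusted p = 0.054) did not pass.

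Glucocorticoid-responsive genes were lower in 10 of 23 cases and higher in 1, with a median of -0.20. The 1 higher member was Mt1, which encodes a metal-binding protein, and the count higher was 2 without control replicate 1, against 0 without control replicate 2 or either AC30 pool. Per1, a clock gene that glucocorticoids also induce, had 7.73 and 8.06 in control against 7.21 and 7.22 in AC30. Nfkbia, the inhibitor of NF-kappaB, had 9.43 and 9.84 in control against 8.86 and 8.93 in AC30, and the feedback inhibitor of growth factor receptors Errfi1 had 8.61 and 8.77 in control against 8.22 and 8.19 in AC30. All AC30 values of these 3 genes were below the control values. Per1 fell by 0.68 ± 0.10 (adjusted p = 0.000977), Nfkbia by 0.74 ± 0.10 (adjusted p = 0.00072) and Errfi1 by 0.48 ± 0.07 (adjusted p = 0.000866). Zbtb16, a zinc finger gene strongly induced by glucocorticoids, fell by 0.34 ± 0.05 (adjusted p = 0.00165), whereas Fkbp5, the co-chaperone of their receptor, was at -0.35 (adjusted p = 0.114) and did not pass. Pdk4 and Cdkn1a, described above, are also members of this list. Of 16 circadian clock genes 4 were lower (2 without AC30 replicate 1) and 1 higher (3 without control replicate 1, and 0 without any pool of the other 4 groups). The repressor gene Cry2 fell by 0.46 ± 0.08 (adjusted p = 0.00267), while Nr1d1, which encodes another repressor, had 9.69 and 8.43 in control against 9.93 and 9.96 in AC30. Control replicate 2 was the lowest for Nr1d1, whose rise of 0.88 ± 0.25 (adjusted p = 0.0429) had an adjusted p of up to 0.165 in 8 of 10 leave-one-out fits. The rise was 0.26 without control replicate 2, but 1.51 without control replicate 1. The sources used here do not give the time of day of sampling, so a difference in it cannot be told apart from the groups. Of 27 immediate-early genes 4 were lower (2 without control replicate 1 and 1 without AC30 replicate 1) and 0 higher (1 without control replicate 1), with Klf2, which blood flow induces in endothelium, at a fall of 0.38 ± 0.07 (adjusted p = 0.00628).

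Oxygen sensing genes fell in 4 of 29 cases and rose in 1 (2 without control replicate 2). Egln3, a prolyl hydroxylase that marks hypoxia-inducible factor for breakdown, had 10.94 and 11.04 in control against 10.41 and 10.40 in AC30, and it fell by 0.58 ± 0.05 (adjusted p = 1.27e-05). Epas1, one of the inducible factors, fell by 0.27 ± 0.05 (adjusted p = 0.00336), and Angpt1, the ligand that steadies vessels, had 8.59 and 8.59 in control against 9.08 and 9.10 in AC30, rising by 0.50 ± 0.06 (adjusted p = 0.000267). Hif1a (-0.14, adjusted p = 0.248) and Vegfa (-0.04, adjusted p = 0.696) did not pass.

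Growth factor lists held calls in both directions. Shares higher and lower were 22% and 7.32% for activin, BMP and TGF-beta and 15.8% and 5.26% for the insulin-like growth factor system. They were 7.14% and 7.14% for imprinted growth genes and 5.88% and 5.88% for Wnt genes. Over all genes they were 3.57% and 4.96%, and the imprinted and Wnt lists were near these. Atrial markers are among the members called higher, Bmp10 on the activin, BMP and TGF-beta list and Dkk3 on the Wnt list. Of 41 members of the activin, BMP and TGF-beta list, 9 were higher and 3 lower (1 without AC30 replicate 1), with Inha, described above, the largest fall. The binding protein gene Ltbp1, which stores latent TGF-beta in the matrix, had 8.69 and 8.59 in control against 9.25 and 9.22 in AC30. The ligand gene Tgfb3 had 8.80 and 8.62 in control against 9.21 and 9.19 in AC30, and both genes had higher AC30 pools. Ltbp1 rose by 0.59 ± 0.07 (adjusted p = 0.000186), Tgfb3 by 0.49 ± 0.07 (adjusted p = 0.00101), the ligand gene Bmp5 by 0.68 ± 0.11 (adjusted p = 0.00151) and the inhibitory Smad6 by 0.67 ± 0.11 (adjusted p = 0.00195). Of 19 genes of the insulin-like growth factor system 3 were higher and 1 lower. Igfbp3, the main carrier of the factor in blood, had 7.79 and 7.76 in control against 8.63 and 8.70 in AC30, and it rose by 0.89 ± 0.07 (adjusted p = 1.13e-05) with no overlap of the groups. Igf1 itself rose by 0.32 ± 0.07 (adjusted p = 0.0088), with an adjusted p of 0.0708 without control replicate 2 and 0.0534 without AC30 replicate 1. The 3 rises became 5 without control replicate 1 but 1 without control replicate 2 or AC30 replicate 1. H19 was the 1 member of 14 imprinted growth genes called higher, and Grb10 the 1 called lower, at 0.21 ± 0.06 (adjusted p = 0.0498), with an adjusted p of up to 0.246 in 10 of 10 leave-one-out fits. Of 34 Wnt genes 2 were higher (5 without control replicate 1) and 2 lower, the receptor genes Fzd6 and Fzd4 falling by 0.44 ± 0.07 (adjusted p = 0.00142) and 0.43 ± 0.07 (adjusted p = 0.00199).

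Matrix genes split between families. Of 40 proteoglycan, elastic fibre and matricellular genes 11 were higher and 4 lower, and of 25 collagens 0 were higher (1 without control replicate 1) and 3 lower. Fbln1, an elastic fibre glycoprotein, had 9.43 and 9.30 in control against 10.16 and 10.07 in AC30. The collagen-binding proteoglycan gene Dcn had 11.81 and 11.78 in control against 12.16 and 12.30 in AC30, and its relative Lum had 9.36 and 9.22 in control against 9.82 and 9.81 in AC30. The AC30 pools of these 3 genes were above both control pools. Fbln1 rose by 0.75 ± 0.06 (adjusted p = 1.27e-05), Dcn by 0.43 ± 0.05 (adjusted p = 0.000143), Lum by 0.53 ± 0.06 (adjusted p = 0.000267) and the fibulin-like gene Efemp1 by 1.04 ± 0.12 (adjusted p = 0.000271). Col4a1, a chain of the vessel basement membrane, had 10.10 and 10.27 in control against 9.59 and 9.66 in AC30, and it fell by 0.56 ± 0.07 (adjusted p = 0.000243). Postn, Sparc, Fbn1 and Loxl2 were the 4 matricellular and fibre genes that fell, and Loxl2 was the 1 of them not called in all leave-one-out fits. The 11 rises were 19 without control replicate 1, against 7 without control replicate 2, and the 3 collagen falls were 6 without control replicate 2 and 1 without AC30 replicate 1. Of 28 metalloproteinases and inhibitors 6 were lower and 0 higher, or 2 lower without control replicate 2 or without either AC30 pool. Timp4, the inhibitor most abundant in heart, had 8.54 and 8.92 in control against 7.90 and 8.05 in AC30, and it fell by 0.75 ± 0.11 (adjusted p = 0.00112).

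Heat shock proteins did not move together in 1 direction. Of 36 measured cytosolic heat shock and chaperone genes, 4 were higher (11.1%) and 3 lower (8.33%), with a median of 0.01. Over all genes the shares were 3.57% and 4.96%, so members were called more often than genes at large, in both directions. The constitutive chaperone gene Hspa8 had 13.23 and 13.17 in control against 13.25 and 13.15 in AC30, and the inducible HSP90 gene Hsp90aa1 had 10.63 and 10.58 in control against 10.59 and 10.62 in AC30. The groups overlapped for both, at 0.00 (adjusted p = 0.977) and 0.00 (adjusted p = 0.997). Hspb1 (0.04, adjusted p = 0.748) and the heat shock factor gene Hsf1 (0.11, adjusted p = 0.499) did not pass either. Hsph1, the large HSP110 chaperone, had 8.33 and 8.31 in control against 8.70 and 8.66 in AC30, and it rose by 0.36 ± 0.08 (adjusted p = 0.00945), with an adjusted p of 0.0733 without AC30 replicate 1. Hspb6, a small heat shock protein of muscle, fell by 0.27 ± 0.04 (adjusted p = 0.00178). The 4 rises were 1 without control replicate 2 and 0 without AC30 replicate 1, and the 3 falls were 1 without control replicate 2. Of 27 chaperones and response genes of the endoplasmic reticulum 3 were higher (7 without control replicate 1) and 0 lower (1 without control replicate 2). Pdia6, which forms disulphide bonds, had 9.89 and 9.94 in control against 10.31 and 10.31 in AC30, and it rose by 0.40 ± 0.06 (adjusted p = 0.00142). Of 44 antioxidant and glutathione genes 7 were lower (2 without AC30 replicate 1) and 5 higher. Leaving out control replicate 1 gave 8 in place of these 5, leaving out control replicate 2 or AC30 replicate 2 gave 3, and leaving out AC30 replicate 1 gave 2. The plasma glutathione peroxidase gene Gpx3 rose by 0.61 ± 0.10 (adjusted p = 0.00274), or by 0.39 without control replicate 2, and the transferase gene Gsta4 by 0.46 ± 0.09 (adjusted p = 0.00557).

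Iron handling and red cell genes included calls in both directions. Tfrc, the transferrin receptor, had 10.03 and 10.24 in control against 9.35 and 9.58 in AC30, and it fell by 0.67 ± 0.08 (adjusted p = 0.000298). Cp, the ferroxidase ceruloplasmin, rose by 0.70 ± 0.11 (adjusted p = 0.00211). The largest rise on the iron and heme list was that of Hamp, which is also an atrial marker. Of 32 iron and heme genes 3 were higher (1 without AC30 replicate 1) and 4 lower (2 without control replicate 2 and 1 without AC30 replicate 1). The beta-globin gene Hbb-b1 had 11.54 and 11.69 in control against 12.06 and 12.06 in AC30. The related gene Hbb had 12.39 and 12.34 in control against 12.64 and 12.56 in AC30. Both AC30 pools were above both control pools, and Hbb-b1 rose by 0.45 ± 0.05 (adjusted p = 0.000192) and Hbb by 0.24 ± 0.05 (adjusted p = 0.0117). The adjusted p of Hbb was 0.0504 without control replicate 2 and 0.113 without AC30 replicate 1. The red cell anion exchanger Slc4a1 fell by 0.72 ± 0.12 (adjusted p = 0.00203), and of 10 erythroid markers 2 were higher (1 without control replicate 2 or AC30 replicate 1) and 2 lower. Haemoglobin genes are near-identical copies, and their signals may be shared. The amount of blood left in the samples was not tested.

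Shares of called members among chemokines and interferon genes are given beside the 3.57% higher and 4.96% lower of all genes. Of 53 chemokines and receptors, Cxcl13 among them, 3 were higher (5.66%) and 1 lower (1.89%, or 2 lower without control replicate 1 and 3 without AC30 replicate 2). The T cell chemokine gene Ccl5 had 7.26 and 7.39 in control against 7.90 and 7.78 in AC30, rising by 0.52 ± 0.09 (adjusted p = 0.00264), and the stromal chemokine gene Cxcl12 fell by 0.36 ± 0.06 (adjusted p = 0.00366). RT1-Da, a class II histocompatibility chain of antigen-presenting cells, had 8.51 and 8.64 in control against 9.20 and 9.11 in AC30. Its AC30 pools lay above both control pools, and it rose by 0.58 ± 0.07 (adjusted p = 0.000201). Nkg7, a granule gene of killer lymphocytes, rose by 0.53 ± 0.11 (adjusted p = 0.00748). Of 21 macrophage and class II markers 2 were higher and 1 lower, of 20 lymphocyte markers 2 higher and 0 lower, and of 16 granulocyte and mast cell markers none was called by limma, with 1 lower at an unadjusted p under 0.05 and 1 called lower without AC30 replicate 2. The macrophage count of 1 lower was 0 without control replicate 2 or AC30 replicate 2. The count of 2 higher was 4 without control replicate 1, and 1 without either AC30 pool or either ReAC pool, and the lymphocyte count was 1 without control replicate 2 or AC30 replicate 2. Of 35 interferon genes 1 was higher (2.86%) and 3 lower (8.57%), falling to 0 and 0 without AC30 replicate 1 and to 1 and 1 without control replicate 2.

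Signalling and maintenance lists had at most 4 members called in either direction. Counts of higher and lower members were 3 and 2 of 43 for MAP kinase cascades, 2 and 4 of 36 for Jak-Stat and cytokine receptors, and 1 and 2 of 33 for insulin, PI3K and mTOR signalling. They were 2 and 1 of 52 for chromatin-modifying enzymes, 0 and 2 of 31 for DNA repair and PARP genes, 0 and 3 of 33 for apoptosis regulators, and 1 and 1 of 37 for proteasome subunits. Muscle protein turnover genes had 3 and 0 of 24. Shares ran from 0% to 12.5% higher, the latter in muscle protein turnover, and from 0% to 11.1% lower, the latter in Jak-Stat, against 3.57% and 4.96% of all genes. Single arrays moved most of these counts by more than 1.5 times. Without AC30 replicate 1 the 8 lists had 1 and 0, 0 and 0, 0 and 1, 0 and 0, 0 and 0, 0 and 2, 0 and 0, and 1 and 0. Without control replicate 2 they had 2 and 0, 2 and 2, 0 and 2, 0 and 0, 0 and 0, 0 and 1, 0 and 0, and 0 and 1. Without control replicate 1 they had 3 and 4, 4 and 3, 1 and 3, 3 and 2, 1 and 1, 1 and 3, 1 and 2, and 4 and 0. The kinase genes Mapk14 (0.11, adjusted p = 0.477) and Akt1 (-0.12, adjusted p = 0.332) and the polymerase gene Parp1 (0.16, adjusted p = 0.0644) did not pass. Stat3 was lower at -0.21 (adjusted p = 0.0385), with an adjusted p of up to 0.255 in 7 of 10 leave-one-out fits. Mapk12 rose by 0.39 ± 0.07 (adjusted p = 0.00494), the FoxO and stress target Ddit4 fell by 0.51 ± 0.08 (adjusted p = 0.00203), and the mitochondrial flavoprotein gene Aifm1 fell by 0.35 ± 0.05 (adjusted p = 0.000986).

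Cell type markers moved beside these groups. All 8 measured atrial markers were higher, with a median change of 1.83 and control replicate 2 far below control replicate 1. They were Sln, Myl7, Nppa, Bmp10, Hamp, Mybphl, Dkk3 and Kcnj3. Some of them also stand on the iron, peptide hormone, ion channel, activin or Wnt lists, where their calls are not a separate result. Sarcolipin, Sln, an inhibitor of the calcium pump, had 11.94 and 9.23 in control against 12.96 and 12.78 in AC30. The atrial light chain gene Myl7 had 13.20 and 10.97 in control against 13.67 and 13.50 in AC30, and the ligand gene Bmp10 had 10.48 and 8.31 in control against 11.74 and 11.54 in AC30. In each, control replicate 2 was lowest by more than 2 log2 units. The changes were 2.28 ± 0.53 (adjusted p = 0.0169) for Sln, 1.50 ± 0.43 (adjusted p = 0.049) for Myl7, 2.24 ± 0.43 (adjusted p = 0.0057) for Bmp10 and 2.16 ± 0.46 (adjusted p = 0.0102) for the myosin-binding gene Mybphl. Without control replicate 2 they were 0.93, 0.39, 1.16 and 1.0, and without control replicate 1 they were 3.64, 2.61, 3.32 and 3.32. The adjusted p of Sln was 0.115 without AC30 replicate 1 and 0.0586 without AC30 replicate 2, that of Bmp10 0.0608 without AC30 replicate 1, that of Mybphl 0.0812 without AC30 replicate 1, and that of Myl7 up to 0.218 in 8 of 10 leave-one-out fits. The 8 calls became 2 without AC30 replicate 1 and 5 without AC30 replicate 2. Of 14 ventricular myocyte markers 2 were lower and 0 higher, and the 2 became 5 without control replicate 1, against 1 without control replicate 2, AC30 replicate 1, AC2d replicate 2 or ReAC replicate 2.

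Endothelial markers fell in 11 of 17 cases and rose in 0, with a median of -0.26. The transcription factor gene Erg had 8.19 and 8.25 in control against 7.49 and 7.79 in AC30, and the lipase anchor of capillaries, Gpihbp1, had 8.99 and 8.96 in control against 8.66 and 8.50 in AC30. Both AC30 pools were lower in each, Erg falling by 0.58 ± 0.09 (adjusted p = 0.00148), Gpihbp1 by 0.40 ± 0.06 (adjusted p = 0.00211) and the receptor gene Tie1 by 0.35 ± 0.07 (adjusted p = 0.00562). The count was 5 without control replicate 2 and 5 without AC30 replicate 1. Of the 6 lymphatic markers none was called by limma. At an unadjusted p under 0.05, 2 of them were higher and 3 lower, and 1 was called lower without control replicate 1 or AC30 replicate 2. Fibroblast markers rose in 7 of 16 cases and fell in 0, Tcf21, a fibroblast transcription factor, by 0.67 ± 0.08 (adjusted p = 0.000318) and Gsn, the actin-severing gelsolin, by 0.51 ± 0.04 (adjusted p = 1.27e-05). Without control replicate 2 the fibroblast counts were 6 higher and 3 lower. Mesothelial markers rose in 3 of 12 cases (5 without control replicate 1) and fell in 0 (1 without control replicate 1), Krt19 by 0.77 ± 0.11 (adjusted p = 0.00103) and Msln by 0.66 ± 0.10 (adjusted p = 0.00129). Smooth muscle and pericyte markers were split, 3 higher and 3 lower of 17 (5 higher without control replicate 1, 0 without control replicate 2 or AC30 replicate 1, and 1 without AC30 replicate 2 or any AC2d or ReAC pool), Mcam falling by 0.57 ± 0.06 (adjusted p = 0.000136) and Notch3 by 0.50 ± 0.09 (adjusted p = 0.00384). Adipocyte markers had means of 7.32 and 6.31 in control against 6.88 and 6.83 in AC30, so the AC30 pools lay between the control pools. Of 18 such markers 4 were lower and 0 higher, but 3 lower and 6 higher without control replicate 1, and 8 lower and 0 higher without control replicate 2. The brown fat gene Ucp1 had 8.43 and 4.50 in control against 7.06 and 7.0 in AC30, and its difference turned from 2.53 without control replicate 1 to -1.40 without control replicate 2. Of 19 Schwann and neuronal markers 1 was higher and 0 lower. Without control replicate 1 there were 5 higher and 0 lower, and without control replicate 2 there were 1 higher and 8 lower.

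**Figure D3:**
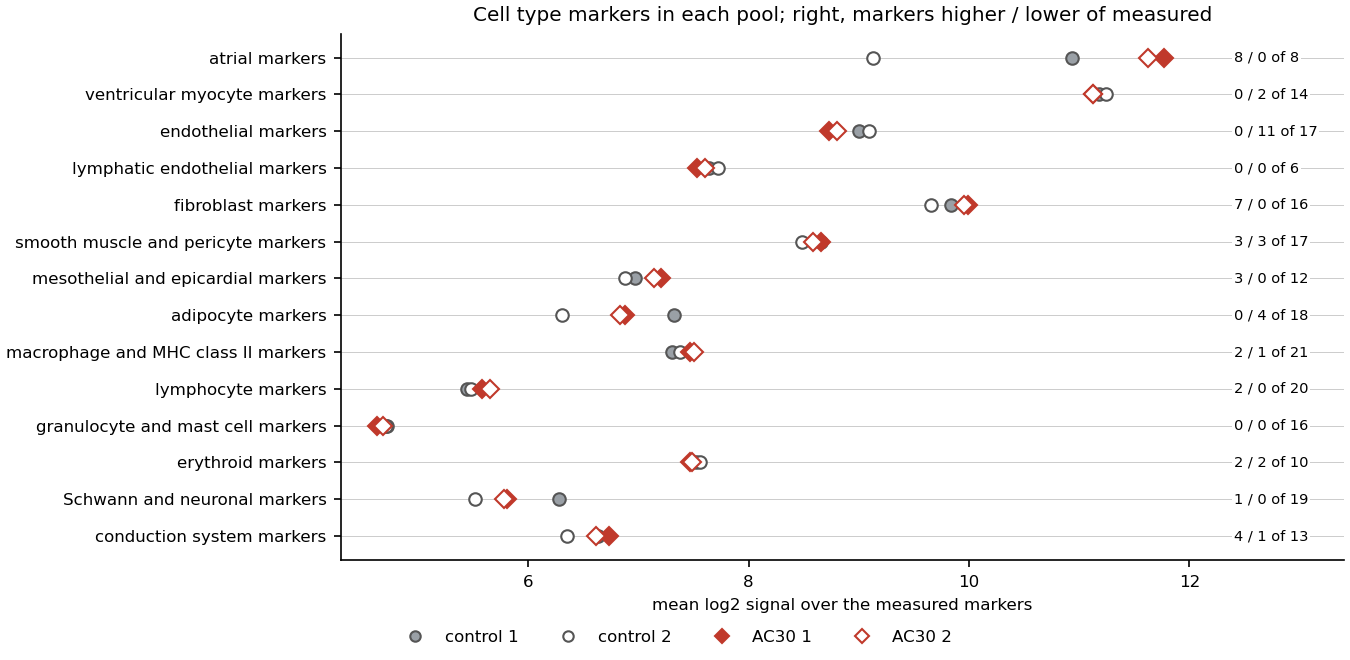
Mean log2 signal over the measured markers of each cell type (x axis) in the 2 control pools (circles) and 2 AC30 pools (diamonds), with the number of markers called higher and lower at the right. The control pools are apart for atrial (10.93 and 9.13), adipocyte (7.32 and 6.31) and Schwann and neuronal markers (6.28 and 5.52), and the AC30 pools lie together in each list.

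**Figure D4:**
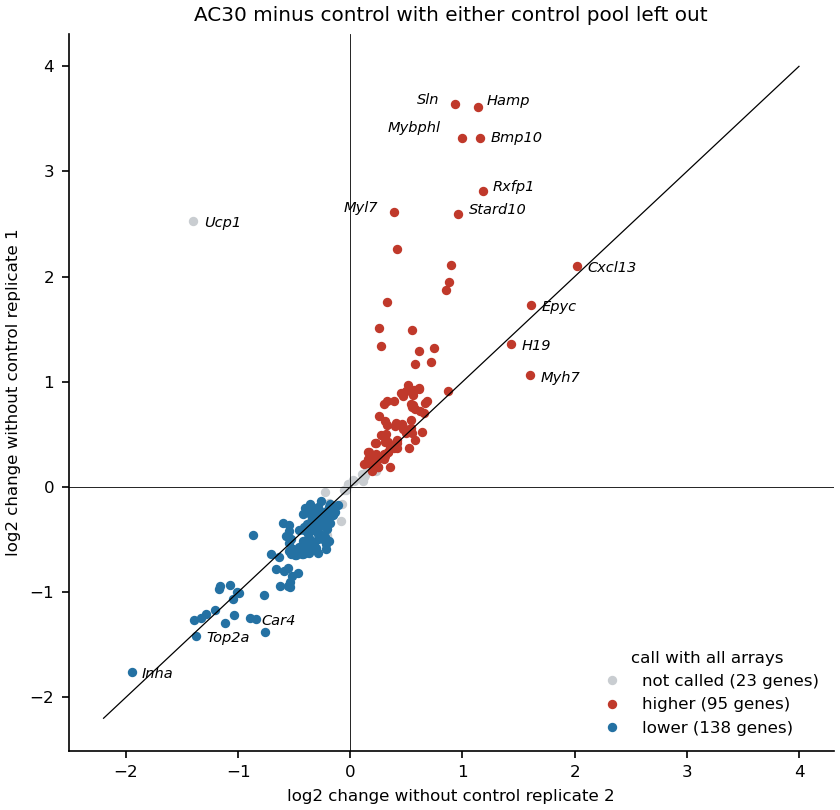
Log2 change in AC30 of the 256 named genes with control replicate 2 left out (x axis) against the change with control replicate 1 left out (y axis), coloured by the call with all arrays, with the diagonal of equal change as a line. Cxcl13, H19, Inha and Top2a lie near the line, whereas Hamp, Sln, Bmp10 and Mybphl lie far above it and Ucp1 changes sign.

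The levels after 30 days were also set beside those after 2 days of heat and after the return to 24 °C. These comparisons share the AC30 pools with the main one and again differ by 1 month of age. Against AC2d, 47 genes were higher in AC30 (0.328%) and 62 lower (0.433%), so few genes were told apart between 2 and 30 days. The sum of 109 was 11 without AC2d replicate 1, but 360 without control replicate 2, and each of the 10 arrays moved it by more than 1.5 times. Cxcl13 was at 6.31 and 6.72 in AC2d and 5.88 and 6.22 in DeAC, and its AC30 pools were the highest of the series. Its difference from AC2d was 1.49 (adjusted p = 0.000243), and it stayed called with each array left out. Car4 was at 8.99 and 8.93 in AC2d and 8.92 and 8.88 in DeAC, close to control, with AC30 apart by -0.98 (adjusted p = 0.000243). Reg3g was at 7.26 and 7.26 in AC2d, above its control level of 6.68 and 6.67, and at 5.78 and 5.57 in AC30, a difference of -1.58 (adjusted p = 3.75e-05). Eno3 (0.44, adjusted p = 0.000567), Hbb-b1 (0.50, adjusted p = 0.000323) and the interferon gene Mx2 (-0.60, adjusted p = 0.000957) also differed from AC2d with each array left out. The difference of Pdk4 was -0.46 (adjusted p = 0.0169), lost without either AC2d pool or AC30 replicate 1, and that of RT1-Da was 0.55 (adjusted p = 0.00133), lost without AC2d replicate 1. In contrast, Top2a at 6.21 and 6.11 in AC2d, Prc1 at 5.49 and 5.62 in AC2d and Myh7 at 12.80 and 12.82 in AC2d were near their AC30 levels after 2 days, with differences of 0.15 (adjusted p = 0.678), 0.01 (adjusted p = 0.989) and 0.02 (adjusted p = 0.972). Of 47 mitosis genes, 0 were called in either direction between AC30 and AC2d by limma, and 1 had an unadjusted p under 0.05. Such a p was seen in 26 of 41 fatty acid genes (median difference -0.13, 2 called lower) and 11 of 17 endothelial markers (-0.20, 1 called lower). It was seen in 11 of 23 glucocorticoid-responsive genes (-0.14, 4 called lower), 10 of 29 tricarboxylic acid cycle genes and 15 of 73 cytosolic ribosomal proteins. A gene not called may still differ between 2 and 30 days.

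In DeAC against AC30, 1411 genes (9.85%) were higher and 1067 (7.45%) lower. Of the 41 fatty acid genes 37 were higher in DeAC and 0 lower, of 29 tricarboxylic acid cycle genes 23 and 0, and of 73 ribosomal proteins 1 was higher and 37 lower. Pdk4 was at 12.06 and 12.05 in DeAC after deacclimation, above both control pools, with a difference from AC30 of 1.73 (adjusted p = 3.62e-08). Bdh1 was at 9.97 and 10.15 in DeAC, also above control, with a difference of 1.97 (adjusted p = 2.97e-07). H19 was at 7.06 and 7.29 in DeAC, below control, with a difference of -1.85 (adjusted p = 3.62e-08). By their pool values these 3 genes lay beyond their control level in DeAC and Car4 lay close to it, a difference from control that was not tested here. Of 47 mitosis genes 1 was higher and 1 lower in DeAC against AC30, and Top2a stood at 6.44 and 6.58 in DeAC, with a difference of 0.19 (adjusted p = 0.292). Alox15 stood at 6.80 and 7.17 in DeAC, with a difference of -0.32 (adjusted p = 0.0773). Atrial markers were lower in DeAC in 8 of 8 cases, Sln standing at 5.79 and 5.73 in DeAC, and the part of this in the other counts was not tested. The total of 2478 was 1450 without AC30 replicate 1 and 1519 without DeAC replicate 2.

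**Figure D5:**
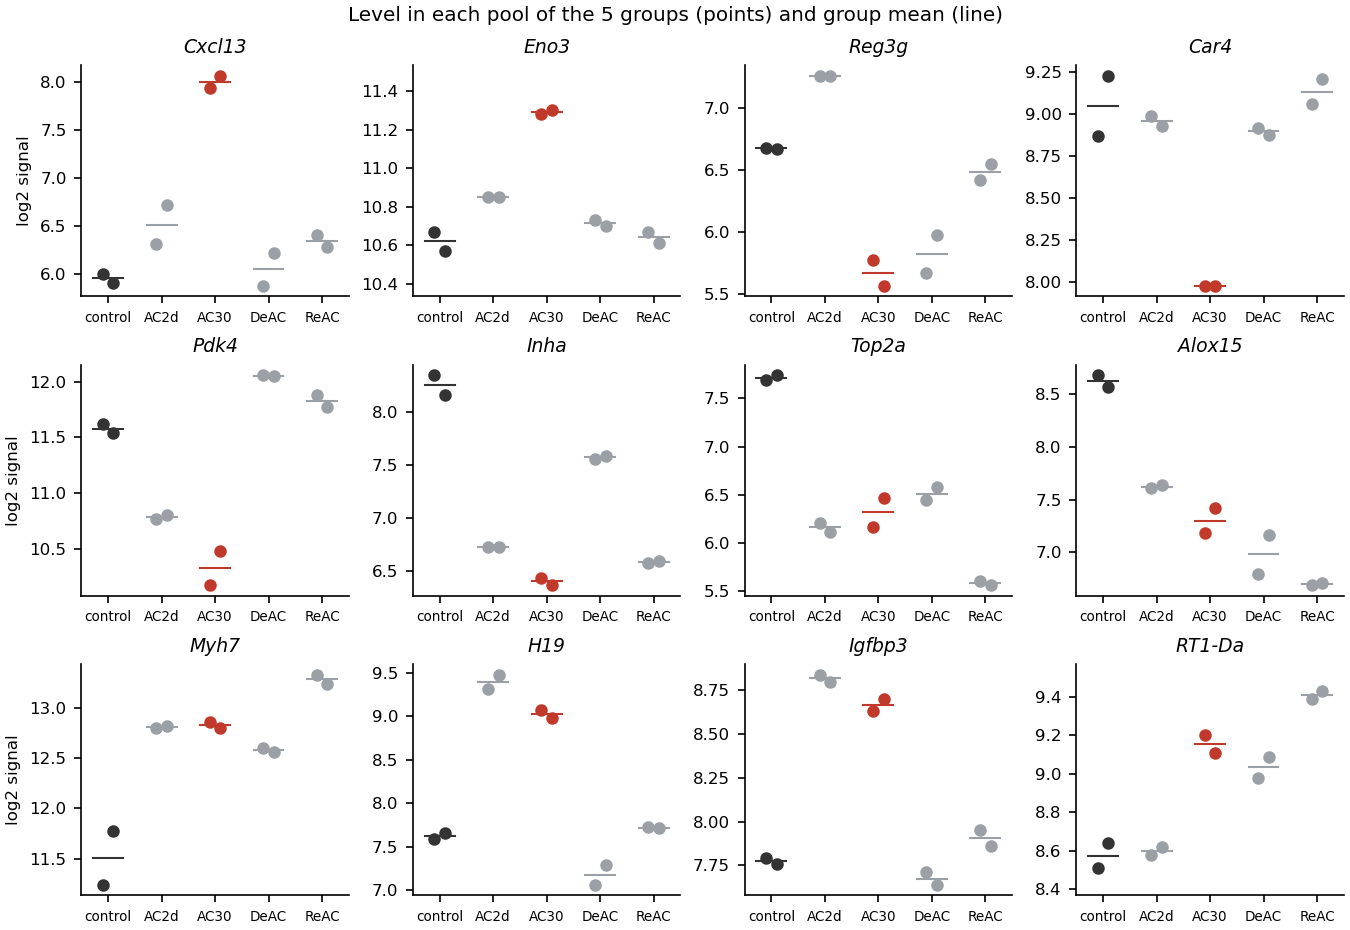
Log2 signal (y axis) of 12 genes in both pools (points) of the 5 groups (x axis), with the group mean as a line and a separate scale for each gene. AC30 stands apart from the other groups for Cxcl13, Eno3 and Car4, while for Top2a, Inha and Myh7 the AC2d pools lie near the AC30 pools and away from control.

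The authors' deposited table of fold changes against control held an AC30 value for 651 probe sets, 341 higher and 310 lower. Among these values of the authors' deposited table, 35 probe sets were at least 2-fold higher and 14 at least 2-fold lower, and the values ran from -3.48 to 5.11. On the log2 scale these folds lay within 0.033 of the differences between the deposited group means. They describe the same arrays, so agreement with the present fit was close to fixed in advance and is no separate support. Of the 507 probe sets that stood for a gene in the present fit, 502 had the same sign, and 254 were called here. Among those at least 2-fold changed, 39 of 39 were called.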

How the data were processed

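Rat left ventricle RNA was measured on 10 Affymetrix arrays, each with a separate pool of 5 animals, and the labels put 2 pools in each of 5 groups. Biotinylated cDNA was hybridised, per the labels' protocols. The authors deposited 1 log2 signal per probe set and array, while the sources used here do not give the method of summary or normalization. The deposited columns did not have equal distributions. The authors also deposited signed fold changes of AC30 against control, a score with a minus sign for falls and a size of at least 1, for 651 probe sets.

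Here the log2 values of all 10 arrays were quantile normalized. There were 27342 probe sets, of which 15097 had a single gene symbol, 323 had more than 1 and 11922 had no symbol. Of the first kind 15067 were matched by gene identifier to RefSeq (GRCr8, for names and promoters). The brightest probe set stood for a gene with several (499 genes), leaving 14324 genes. limma 3.58.1 in R 4.3.3 was fitted with 1 mean per group, and eBayes used a mean-variance trend. Tests were two-sided, with Benjamini-Hochberg adjustment over all genes. The number of arrays limits the precision. The fit was tested on simulated data for AC30 against control with 14324 genes, 200 of them changed. It recovered 58% of changes of 0.5 and 96.2% of changes of 1 log2 unit, and 3.46% of calls were false. The simulated noise was drawn separately for each gene, with the same spread in every group. Neither the wider gap between the control pools nor shifts shared by many genes were simulated, so these rates need not hold for them.

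Named genes were the 15 largest changes per direction with pools that do not overlap, up to 5 called members with the smallest p from each of 58 gene lists (up to 2 members where none was called), and a fixed set. Other list members are named without values. The members, lists and tests were chosen with earlier results of these data known. Alternatives covered the normalization, the trend, dim genes, probe sets per gene, the arrays in the fit, a replicate block, thresholds and each array left out. The covariate for the atrial level, the mean of the 8 measured atrial markers, was chosen after seeing the data. Motifs were searched on both strands of RefSeq promoters, except the pyrimidine tract, searched on the transcribed strand.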

Additional observations from a re-analysis of the deposited data

Results flagged for a closer look

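Probe sets with no gene symbol were not part of any comparison above, and some of them differed between AC30 and control. Of 11922 such probe sets, 185 were called by limma, 108 higher and 77 lower. Another 323 probe sets carried several symbols, of which 5 were higher and 10 lower. Together 1.63% of these probe sets were called, against 8.53% of the genes. The probe sets were fitted and adjusted apart from the genes, so these shares do not rest on the same p cutoff. Which transcripts the probe sets measure was not examined here. No group held enough samples for a test of single outlying pools.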

How the results depend on the processing

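The count of 1222 genes changed in AC30 against control ranged from 484 to 1453 with each array left out. It was 602 with median scaling, 541 without the mean-variance trend, 278 with only the groups compared, 222 with the atrial level as a covariate, 507 at an adjusted p under 0.01 and 315 with a change of at least 0.5. For AC30 against AC2d, the 109 calls ranged from 11 to 360 with each array left out, and were 47 on the values as deposited, 32 with median scaling, 16 without the trend, 286 with only the groups compared, 25 at 0.01 and 35 with a change of at least 0.5. For DeAC against AC30 the 2478 calls ranged from 1450 to 2785, and were 95 with the covariate, 1445 at 0.01 and 613 with a change of at least 0.5.

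List counts moved under the same settings. The 26 falls in fatty acid oxidation were 15 with median scaling, 8 without the trend, 8 with only the groups compared, 3 with the covariate and 3 with a change of at least 0.5 (11 to 27 with each array left out). The 18 falls in the tricarboxylic acid cycle were 7 without the trend, 9 with only the groups compared, 6 with the covariate and 1 with a change of at least 0.5 (11 to 17). The 13 falls in complex I were 6 as deposited, 2 with median scaling, 2 at 0.01, and 0 without the trend, with only the groups compared, with the covariate and with a change of at least 0.5 (3 to 12). The 20 rises in ribosomal proteins were 7 with median scaling, 2 without the trend, 4 with only the groups compared, 3 with the covariate, 5 at 0.01 and 0 with a change of at least 0.5 (7 to 20). The 31 falls in mitosis were 4 without the dimmest 40% of genes, 18 with only the groups compared, 8 with the covariate and 18 at 0.01 (13 to 32). The 8 atrial rises were 3 without the trend, 2 with only the groups compared, 0 with the covariate and 4 at 0.01 (2 to 8). The 11 endothelial falls were 6 as deposited, 6 with median scaling, 4 without the trend, 3 with only the groups compared, 2 with the covariate, 5 at 0.01 and 1 with a change of at least 0.5 (5 to 11). The 7 fibroblast rises were 4 with the covariate and 4 with a change of at least 0.5 (5 to 8). Asking for a larger change or a smaller adjusted p leaves fewer candidates by construction. The covariate is the mean of the 8 measured atrial markers, so its loss of the atrial calls was close to fixed in advance. Leaving out the dimmest 40% of genes took members of lists away before the fit, so those members could not be called. The 242 named genes that stayed in that fit lost 0 calls. For the other settings and lists, fitting only the groups compared included, the cause was not tested.

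Sln, Myl7 and Nppa are part of the covariate, so their turns with it are not a separate result. With the covariate the change turned to -0.21 for Sln, -0.54 for Myl7, -0.36 for Vsnl1, -0.26 for Nr1d1, -0.20 for Tagln, -0.26 for Nppa and -3.02 for Ucp1. Ucp1 ranged from -1.40 to 2.53 with each array left out. No other gene among the 95 named as higher and 138 named as lower changed direction under the alternatives run, while changes near 0 of genes not called, such as Adrb1 and Hspb1, did turn. Pools of the same number did not deviate together (r = -0.017 over genes, which are not independent replicates), so the numbers do not pair the samples. With the replicate block 1233 genes were called, 510 of them higher. The replicate block ended the call of 2 of the 256 named genes.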
